A study of Mus musculus with 4 samples.

Results

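Cassette exons with very large gains in inclusion in both PTBP2 knockouts were followed through the RNAseq of mouse brain, in *Sympk*, *Gpr85*, *Ikzf4* and *Ccdc91*. These 4 genes, of the 19281 named in the deposited tables, were chosen by PSI, since each holds a cassette exon whose PSI (percent spliced in, the share of transcripts that include the exon) was far higher in the knockout library than in its comparison library at both stages. All exon trios of the 4 genes were taken, a trio being a middle exon with the exon before and the exon after it, which gave 67 of 228333 trios. Trios were named by matching chromosome, strand, exon length and both intron lengths to GENCODE mouse transcripts of release M21. Of 6474 cassette exons with at least 20 junction reads in each library, the member exons ranked 1, 2, 3 and 5 by the smaller of their gains at the 2 stages. The exon at rank 4, of 189 nt in *Stam2* (58.8 and 55.2 PSI points), lies between *Ikzf4* and *Ccdc91* in this order and is not among the chosen genes, and the exon at rank 6, of 15 nt in *Actr2*, had gains of 65.4 and 51.3 points. The gains of the member exons are therefore given as a description, with no test.

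Each of the 4 groups had 1 library. At E18, polyA+ RNA came from the whole brain of PTBP2 Nes-KO embryos (NesKO) and of wild-type littermates, with 2 brains for each library. At P1, polyA+ RNA came from the cortex of 1 PTBP2 Emx-KO animal (EmxKO) and of 1 littermate labelled wild type. The paper describes both knockouts as homozygous for a floxed *Ptbp2* allele, from which Cre deletes exon 4. Cre was under the nestin promoter in neural progenitors in the NesKO. In the EmxKO it was driven by the Emx1 promoter of the dorsal forebrain. All 4 are labelled as being on a mixed C56Bl/6:129S2 background. The P1 libraries were strand specific and the E18 libraries were not, so stage, tissue, Cre line and library protocol cannot be told apart. *Ptbp2* exon 4 itself was skipped in 100% of the NesKO transcripts (95% Wilson interval, 98.5 to 100%), in 0.225% at E18 in the wild type, in 82.6% in the EmxKO (79.9 to 85.1%) and in 31.5% in the P1 library labelled wild type (29.5 to 33.7%, 604 skipping reads). The last value goes partly against the label, and every P1 difference below is a difference from the library labelled wild type. Where 4 values follow each other below, they stand for the NesKO, its E18 comparison, the EmxKO and its P1 comparison. Between 48367448 and 83394001 reads per library lay on distinct junctions that span an intron. The 6 markers of neurons outside the cortex summed to 32.5 RPM (reads scaled to 1000000 reads on distinct junctions) in the NesKO and 41.0 in the E18 wild type, but to 0.770 and 0.959 in the EmxKO and the P1 library labelled wild type. The sum of 5 neuronal markers was 783 RPM in the NesKO against 1028 in the E18 wild type, and 1225 in the EmxKO against 1620 in the P1 library labelled wild type. Of these neuronal markers, *Stmn2* went the other way at E18 (375 against 346 RPM). The 2 microglial markers summed to 87.3 against 58.2 at E18 and to 49.9 against 32.6 at P1. Other cell types also differed. Astroglial markers summed to 221 against 337 at E18 and 247 against 238 at P1, and oligodendrocyte-lineage markers to 34.9 against 60.1 and 81.7 against 67.8. Markers of cortical projection neurons summed to 120 against 131 and 358 against 425. The part of such shifts in the exon values was not tested, and fewer cells of a type and less RNA per cell cannot be told apart in these bulk samples.

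PTBP2 (nPTB) is an RNA-binding protein of developing neurons that binds pyrimidine-rich sequence in pre-mRNA and represses many nearby exons. An exon can change the protein it belongs to, but it can also lie in the leader of the mRNA before the start codon, or carry a stop codon in the frame of the upstream exons. A stop codon that is followed by further exon junctions is a known trigger of nonsense-mediated mRNA decay. The 4 genes do different work. *Sympk* encodes symplekin, a scaffold of the machinery that cleaves and polyadenylates pre-mRNA. *Gpr85* encodes an orphan receptor expressed in brain (SREB2), *Ikzf4* encodes Eos, a zinc finger transcription factor of the Ikaros family, and *Ccdc91* encodes an accessory protein of sorting at the trans-Golgi network.

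The junction sequences show what the reads counted, since a read that crosses the 5′ or the 3′ junction came from a transcript with the exon and a read that crosses the skipping junction came from one without it. They are shown for the 2 leader exons because this pair carried the most reads. The 15 bases on each side of the junction are given as transcript sequence from GENCODE M21 (GRCm38), 5′ to 3′, with bases of the member exon in capitals. The *Sympk* exon lies on chromosome 7 at 19027897 to 19028022 of GRCm38, plus strand, which corresponds to 19613246 to 19613371 in the mm9 coordinates of the deposited tables, and the *Gpr85* exon lies on chromosome 6 at 13837999 to 13838122 of GRCm38, minus strand (mm9, 13787999 to 13788122).
*Sympk* 5′ junction: gaggccggagtcgcgAACCCCTGCATTGTC
*Sympk* 3′ junction: ATGTTAAGACTACAGggagaacctgacagc
*Sympk* skipping junction: gaggccggagtcgcgggagaacctgacagc
*Gpr85* 5′ junction: atccaacaccaacagGGGTGGTGGATTTCA
*Gpr85* 3′ junction: ATCAGCATATTCCAGatgttctgatggcaa
*Gpr85* skipping junction: atccaacaccaacagatgttctgatggcaa
Both skipping junctions join the lower-case bases directly, so that each exon drops out as a whole.

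By the deposited ratio, the 4 member exons were mostly skipped in the comparison libraries and mostly included in the knockouts, although for *Ccdc91* the level in the knockouts depends on the counts taken, as given with that exon. Their gains were between 62.1 and 71.1 PSI points at E18 and between 54.3 and 70.8 points at P1. Over all cassette exons with 20 junction reads in both libraries of a stage, 6.98% of 6748 gained at least 10 points at E18 and 6.83% of 6940 did so at P1, and 2.27% of 6474 gained at least 10 points at both. The median difference over all cassette exons was 0.0 points at E18 and 0.2 points at P1. Because the members were picked for these gains, nothing is read from the fact that all 4 pass. The scatter of differences at the 2 stages places them among all cassette exons.

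**Figure D1:**
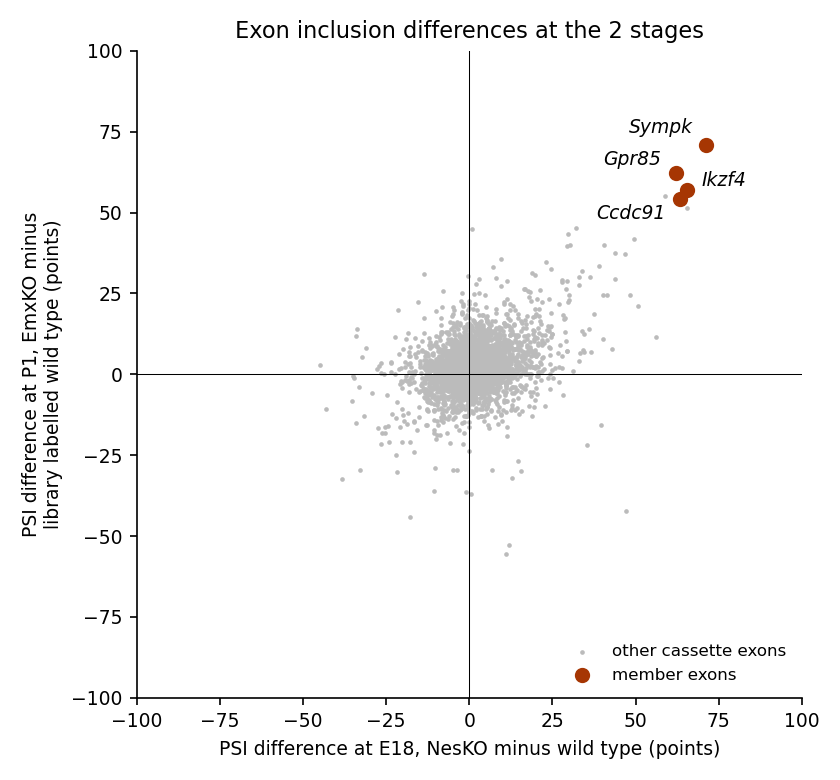
Difference in PSI (points) at E18, NesKO minus wild type (x axis), and at P1, EmxKO minus the library labelled wild type (y axis), for 6474 cassette exons with at least 20 junction reads in each library. The 4 member exons, in red, sit at 62.1 to 71.1 points on the x axis and 54.3 to 70.8 points on the y axis.

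The *Sympk* exon of 126 nt came closest to a switch. Its PSI was 72.0% in the NesKO and 0.9% in the E18 wild type, and it was 71.0% in the EmxKO and 0.2% in the P1 library labelled wild type. The reads on its 5′ junction, its 3′ junction and the skipping junction numbered 353, 833 and 235 in the NesKO, and 5, 6 and 616 in the E18 wild type. The same junctions had 598, 1189 and 310 reads in the EmxKO, and 2, 1 and 584 in the P1 library labelled wild type. Inclusion was thus near 0 in both comparison libraries, and the intervals of the 2 genotypes lie far apart at each stage. PSI from the junction reads alone, in which the 2 inclusion junctions are averaged and compared with the skipping junction, was 71.6% (95% Wilson interval, 68.5 to 74.6%) in the NesKO against 0.885% (0.443 to 2.09%), and 74.2% (71.7 to 76.6%) in the EmxKO against 0.256% (0.0936 to 1.24%). Read coverage over the exon had the same order, at 1.16 and 1.20 times the mean of its flanking exons in the NesKO and the EmxKO, and at 0.0546 and 0.0654 times in the comparison libraries. Coverage comes from the same libraries and is not separate evidence. Its ratios above 1 do not measure the level of inclusion. These intervals, like all others here, cover counting error only, and how far animals of 1 group differ could not be seen from 1 library.

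The *Sympk* exon is exon 2 of 8 in 1 annotated protein-coding transcript and contains 0 coding nt. It lies in the leader, between a first exon of 87 nt in this transcript, listed with 86 nt in the deposited tables, and an exon of 124 nt that holds 19 nt of leader, the start codon and 105 coding nt, so its length, which is a multiple of 3, leaves the reading frame of symplekin untouched (1288 codons in the longest annotated form). With the exon, the leader is 232 nt long and has 3 upstream ATG triplets, while without it the leader is 106 nt long and has 1. The 2 triplets that the exon brings lie at its bases 32 and 112. The first opens a frame of 17 codons that ends before the start codon. The second begins 34 bases before the start codon, at the capitals that open the 3′ junction printed above, and opens a frame of 44 codons that runs past the start codon in another frame. These are features of the sequence, and translation was not measured.

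The 124 nt exon of *Gpr85* was already partly included without the knockout. Its PSI was 91.0% in the NesKO and 28.9% in the E18 wild type, and 78.2% in the EmxKO and 16.0% in the P1 library labelled wild type. The 5′, 3′ and skipping junctions had 328, 392 and 33 reads in the NesKO, and 46, 154 and 224 in the E18 wild type. They had 475, 716 and 118 reads in the EmxKO, and 122, 225 and 740 in the P1 library labelled wild type. From the junction reads, PSI was 91.6% (88.4 to 94.0%) against 30.9% (26.1 to 36.1%) at E18, and 83.5% (80.6 to 86.0%) against 19.0% (16.6 to 21.7%) at P1. The EmxKO was therefore lower than the NesKO, and the P1 library labelled wild type was lower than the E18 wild type. These pairs are not matched in genotype, since the Cre lines and the skipping of *Ptbp2* exon 4 differ, and tissue and protocol differ too. From E18 to P1 the PSI dropped by 12.9 points in the libraries labelled wild type and dropped by 12.8 points in the knockouts, which left the gain nearly the same at 62.1 and 62.2 points. The second trio of this exon, which ends in a listed exon of 2000 nt in place of 2003 nt, gave 91.5, 29.0, 76.6 and 16.7% in the 4 libraries in turn.

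The *Gpr85* exon is exon 3 of 4 in 1 annotated protein-coding transcript, again with 0 coding nt. The whole coding sequence of 1110 nt, or 370 codons, lies in the last exon, so the length of 124 nt, which leaves a remainder of 1 after division by 3, does not shift the reading frame of the receptor. The leader is 1215 nt long with the exon and 1091 nt without it, and upstream ATG triplets number 22 and 17. All 5 of those in the exon open frames of 6 to 53 codons that end before the start codon.

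**Figure D2:**
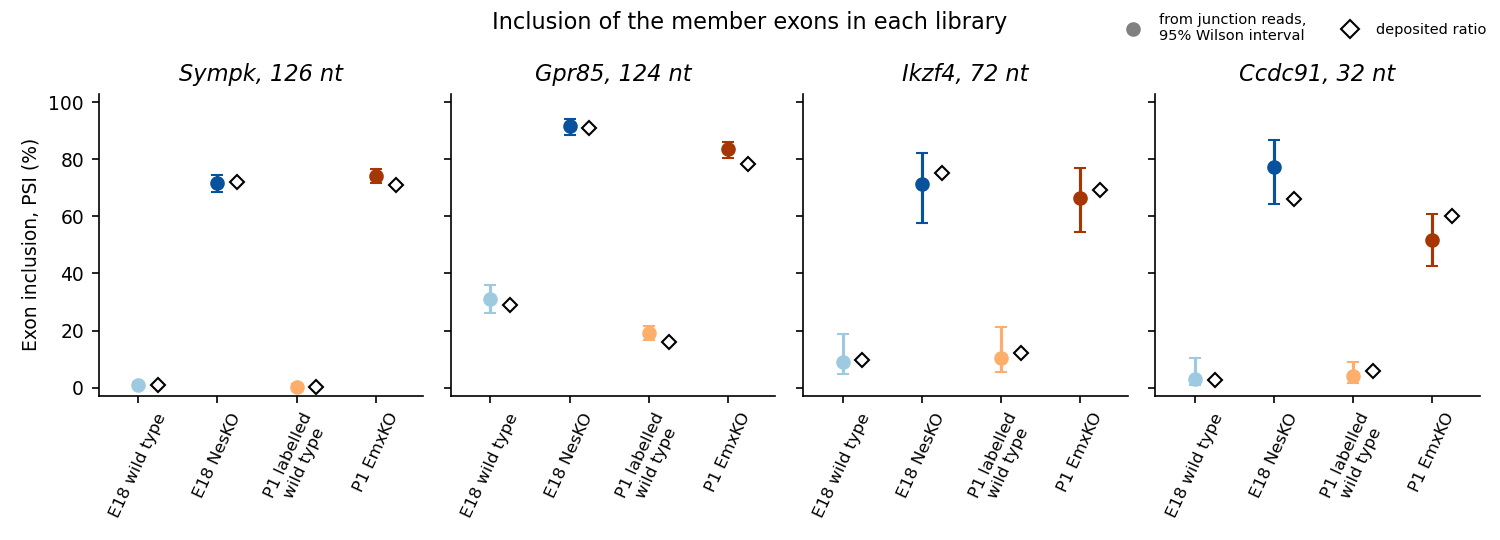
Inclusion (PSI, %) of the 4 member exons in each library, from junction reads with the 95% Wilson interval (filled circles) and from the deposited ratio after correction (open diamonds). The knockout libraries sit between 51.8 and 91.6% and the comparison libraries between 0.256 and 30.9% by junction reads, with intervals that do not overlap within a gene and stage.

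*Ikzf4* had far fewer reads. The 72 nt exon reached 75.1% PSI in the NesKO but 9.7% in the E18 wild type, and 69.1% in the EmxKO but 12.2% in the P1 library labelled wild type. The 5′, 3′ and skipping junctions had 23, 47 and 14 reads in the NesKO, and 6, 7 and 65 in the E18 wild type. In the EmxKO they had 28, 55 and 21 reads, and in the P1 library labelled wild type 4, 9 and 56. The Wilson intervals are wide but apart, at 57.6 to 82.2% against 4.79 to 18.7% at E18 and at 54.4 to 77.1% against 5.49 to 21.2% at P1. Between the stages, the libraries labelled wild type differed by 2.5 points and the knockouts by −6.0 points (P1 minus E18), which is less than the width of these intervals.

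Read from the start codon in the 273 nt exon, the 72 nt exon carries a stop codon in the frame of both exons that were joined to it. For this reason its joins are shown. It lies on chromosome 10 at 128643694 to 128643765 of GRCm38, minus strand (mm9, 128080750 to 128080821), as exon 3 of 9 in 1 transcript that GENCODE labels as a target of nonsense-mediated decay, which counts 32 of the 72 nt as coding. The last 30 bases of the exon before it are in lower case and the bases of the 72 nt exon up to and including the stop codon are in capitals. The skipped form has the first 30 bases of the next exon in its place.
94 nt exon to 72 nt exon: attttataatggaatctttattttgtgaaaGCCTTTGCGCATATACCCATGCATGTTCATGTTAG
273 nt exon to 72 nt exon: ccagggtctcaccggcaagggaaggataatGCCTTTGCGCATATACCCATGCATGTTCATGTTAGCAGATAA
94 nt exon to 105 nt exon: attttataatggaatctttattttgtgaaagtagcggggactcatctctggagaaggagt
After the 94 nt exon the frame closed at a TAG that begins at base 33 of the 72 nt exon, and after the 273 nt exon it closed at a TAA that begins at base 40.

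The reading frames of the 4 joins differ more than the length of the exon would show, since 72 nt is a multiple of 3. From the annotated start codon in the 273 nt exon, the path through the 94 nt and the 105 nt exons gives 586 codons. Inserting the 72 nt exon between them gives 71 codons, with 6 exon junctions after the stop codon and 853 nt from it to the last junction. Joining the 273 nt exon directly to the 72 nt exon gives 42 codons, with 6 junctions and 846 nt after the stop. The path from the 273 nt exon directly to the 105 nt exon, without either exon, also closed early, with 48 codons, a TGA at base 58 of the 105 nt exon, and 5 junctions and 756 nt after it. Of the 4 paths, 1 keeps the long frame, and inclusion of the 72 nt exon leaves it in either context. The 94 nt exon was also joined from a 76 nt exon, with 32, 37, 18 and 27 reads in the 4 libraries in turn. The frame of transcripts that begin with other exons was not traced.

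The direct join of the 273 nt exon to the 72 nt exon is not part of the ratio used to choose this gene. It took 49 of 106 reads that left the 273 nt exon in the NesKO (46.2%, Wilson interval 37.0 to 55.7%) and 8 of 104 in the E18 wild type (7.69%, 3.95 to 14.4%). At P1 it took 30 of 68 in the EmxKO (44.1%, 32.9 to 55.9%) and 2 of 75 in the library labelled wild type (2.67%, 0.734 to 9.21%). Both knockout shares lie above both comparison shares, and the intervals do not overlap. The join to the 105 nt exon had 18, 46, 12 and 34 reads in the 4 libraries in turn, and the join to the 94 nt exon had 39, 50, 26 and 39. As shares, the join to the 94 nt exon took 36.8% against 48.1% at E18 and 38.2% against 52.0% at P1. The bars of reads that leave the 273 nt exon show the 3 destinations together. The reads are from the same libraries as the ratio and concern the same exon, so they are not a separate line of evidence.

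**Figure D3:**
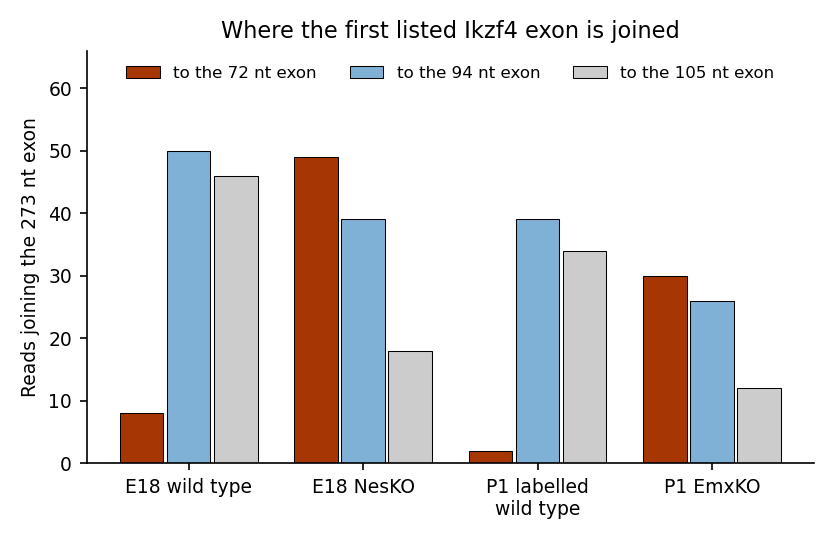
Reads (y axis) that join the 273 nt exon of *Ikzf4* to the 72 nt, the 94 nt or the 105 nt exon, for each of the 4 libraries. The join to the 72 nt exon had 49 and 30 reads in the NesKO and the EmxKO and 8 and 2 in their comparison libraries.

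The 32 nt exon of *Ccdc91* reached 66.2% PSI in the NesKO but 2.8% in the E18 wild type, and 60.0% in the EmxKO and 5.7% in the P1 library labelled wild type. All of its inclusion reads lay on 1 side. Its 5′ junction had 82, 4, 114 and 10 reads in the 4 libraries in turn, while its 3′ junction had 0 reads in all 4 libraries, which allows a share of the trio's reads of up to 3.19, 4.35, 1.80 and 2.26%. The skipping junction had 12, 65, 53 and 123 reads in this trio. The next trio of the gene lists the same junction, from the 189 nt exon to the 44 nt exon, with 80, 167, 142 and 282 reads. With the higher count, and the 2 inclusion junctions averaged as above, inclusion was 33.9 and 28.6% in the NesKO and the EmxKO and 1.18 and 1.74% in the comparison libraries, so that the gains of 63.4 and 54.3 points became 32.7 and 26.9 points. With the higher count and the 5′ junction alone, it was 50.6 and 44.5% in the knockouts and 2.34 and 3.42% in the comparison libraries. The order of the libraries is thus the same by each count that uses the 5′ junction, whereas the level in the knockouts depends on which count of the skipping junction is taken, and no read joined the exon to the exon after it.

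A side at 0 is not rare for such short exons in these tables. Of 5936 cassette exons with at least 50 reads on the larger side, summed over the libraries, 3.55% had 0 reads on the other side, but of the 770 that are shorter than 50 nt 17.7% did. The *Ccdc91* exon lies on chromosome 6 at 147447248 to 147447279 (mm9), plus strand, in an intron between exons of 189 and 44 nt, and it matches no exon of the M21 annotation. It was named by an exon it shares with a named trio, and its sequence is not given here. In the longest annotated form, of 442 codons, the 189 nt exon has no coding bases and the 44 nt exon holds the start codon and 30 coding nt. Placed between them, the 32 nt exon, whose length leaves a remainder of 2 after division by 3, would lie before the start codon like those of *Sympk* and *Gpr85*.

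The junctions on either side of an exon should carry similar numbers of reads if both are equally easy to map, and this balance played no part in choosing the genes. An uneven balance was usual in these tables. Of 25121 tests, 1 for each cassette exon and library with inclusion reads, 61.1% passed (two-sided exact binomial test, Benjamini-Hochberg adjusted over all of them), and with all distinct junctions of an exon summed 60.2% passed. The member exons passed in 11 of 16 tests, and in 10 of 16 with the junctions summed, so nothing is particular to them in this count. For *Sympk* the 5′ junction had 29.8% of the inclusion reads in the NesKO and 33.5% in the EmxKO (adjusted p = 3e-44 and 4e-44, exact binomial test). The comparison libraries, with 5 and 6 reads and with 2 and 1 reads on the 2 sides, gave an adjusted p = 1.0 in both (exact binomial test). For *Gpr85* it had 45.6, 23.0, 39.9 and 35.2% in the 4 libraries in turn (adjusted p = 0.032, 3.3e-14, 1.1e-11 and 1e-07, exact binomial test), so that the 3′ junction led in all 4. For *Ikzf4* it had 32.9% in the NesKO (adjusted p = 0.01, exact binomial test) and 33.7% in the EmxKO (adjusted p = 0.0075, exact binomial test), while the comparison libraries did not pass (adjusted p = 1.0 and 0.35). Here the sum over both exons that were joined to the 72 nt exon turned the direction, to 60.8% (adjusted p = 0.038) and 52.2% (adjusted p = 0.79, exact binomial test). For *Ccdc91* the inclusion reads were all on the 5′ junction (adjusted p = 2.3e-24 in the NesKO, 7e-34 in the EmxKO and 0.0038 in the P1 library labelled wild type, exact binomial test), and the E18 wild type, with 4 reads, did not pass (adjusted p = 0.18).

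**Figure D4:**
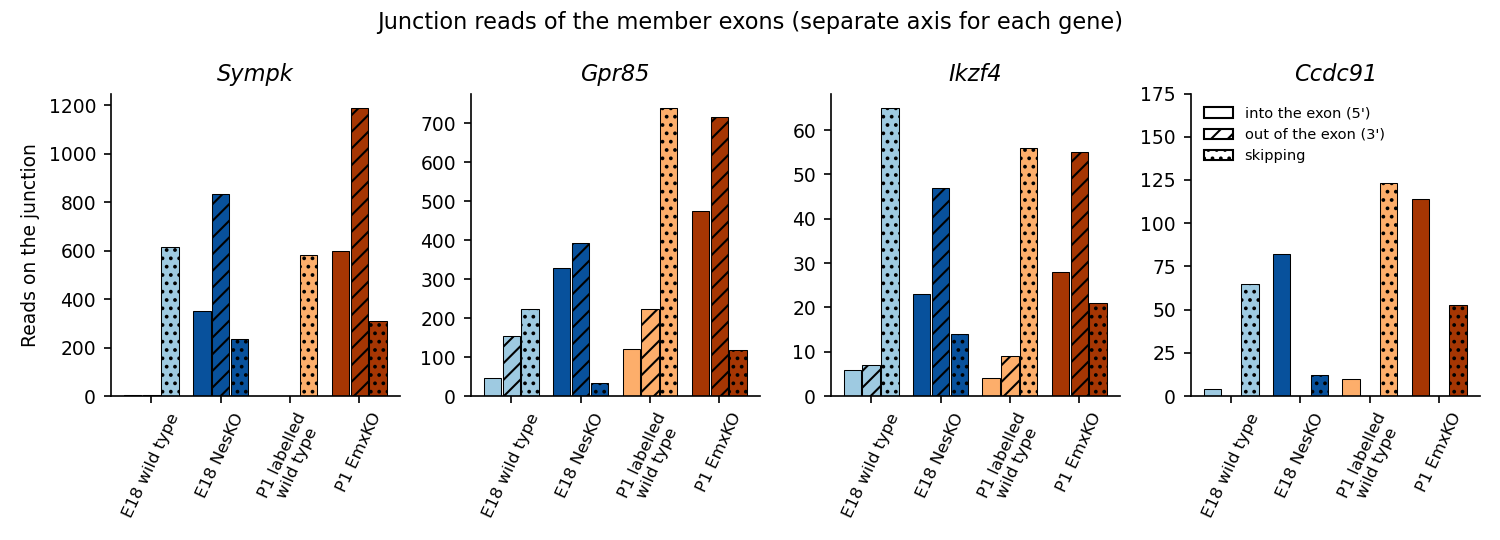
Reads on the 5′ junction (plain bars), the 3′ junction (striped) and the skipping junction (dotted) of each member exon in the 4 libraries, with a separate y axis for each gene. In *Sympk*, *Gpr85* and *Ikzf4* the 3′ bar is the taller inclusion bar in both knockouts, and in *Ccdc91* it is at 0 in every library.

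The other exons of the 4 genes were counted in the same way. Of the 62 other trios, which hold 49 exons, 61 had 20 junction reads in both libraries at each stage. At E18, 1 was higher by at least 10 points and 4 were lower, and at P1 none was higher and 2 were lower, while 46 had a PSI of at least 99% in all 4 libraries. The changed trios were 8.20% of those with enough reads at E18 and 3.28% at P1, beside 2.4% and 1.52% of the trios of every label in the series. Among cassette exons alone, 10.9% changed by at least 10 points at E18 and 9.42% at P1, but most of the other trios of these genes are labelled constitutive. Trios of 1 gene share exons and reads, so these counts are not of independent exons. The exons that flank the *Sympk* and the *Gpr85* exons and are the middle of a trio, the 124 nt exon and the 620 nt exon, were at 99.9% in all 4 libraries. A second cassette exon of *Sympk*, of 74 nt, was at 0.1 to 0.5% in all 4.

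Most of the other differences were in *Ikzf4*, next to the 72 nt exon. The 94 nt exon before it was at 33.0% in the NesKO but 45.4% in the E18 wild type, and at 47.2% in the EmxKO and 57.2% in the P1 library labelled wild type, in the trio that ends at the 105 nt exon. In the trio that ends at the 72 nt exon it had 28.2% against 36.1% at E18 and 39.3% against 56.9% at P1. The skipping junction of that trio is the join of the 273 nt to the 72 nt exon (49, 8, 30 and 2 reads). Its values are therefore not separate from the gain of the 72 nt exon. The comparison values there lie far below what the junction reads give (5′, 3′ and skipping, 50, 9 and 8 at E18 and 38, 15 and 2 at P1). By the deposited ratio the 94 nt exon was thus lower in the knockout in both of these trios. In another trio, with a 76 nt exon before it, the values were 66.4% against 59.2% at E18 and 66.7% against 71.9% at P1. A 60 nt segment before the 105 nt exon, an alternative 3′ splice site, had 60.0% in the NesKO and 23.2% in the E18 wild type, and 54.2 and 49.1% at P1, with at most 2 reads on its 5′ junction in any library. The 105 nt exon, in the trio with a 774 nt exon before it and the 247 nt form of the exon after it, had 62.3% in the NesKO and 99.6% in the E18 wild type, but 0 and 1 skipping reads, with 99.9 and 90.2% at P1, and it was at 99.9% in all 4 libraries in the other 3 trios that list it.

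The 2 trios of the *Sympk* exon of 177 nt were at 83.5 and 89.0% in the NesKO and 99.9% in the other 3 libraries. Neither had a skipping read in the NesKO, where the 5′ junction had 689 reads and the 3′ junction 291, so these values come from the estimate and not from reads that skip the exon. In *Ccdc91* an 88 nt exon had 99.9, 41.9, 55.1 and 16.8% in the 4 libraries in turn, and it was left out of the counts because of its reads. Its 3′ junction had 53, 17, 32 and 10 reads, its 5′ junction had none, and the skipping reads numbered 0, 2, 0 and 0.

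The amount of each transcript was approached through reads on constitutive junctions, those between exons that no trio of the gene marks as alternative, in RPM. These reads leave out the junctions of the member exons. *Sympk* had 434 RPM in the NesKO and 259 in the E18 wild type, a ratio of 1.68 (95% counting interval, 1.64 to 1.71), and 426 in the EmxKO and 263 in the P1 library labelled wild type, a ratio of 1.62 (1.59 to 1.65). Over all genes with at least 100 such reads in both libraries, the median ratio was 0.966 at E18 (11099 genes, 5th to 95th percentile 0.659 to 1.36) and 1.03 at P1 (11079 genes, 0.433 to 1.46), and 0.991 and 2.17% of genes had a higher ratio than *Sympk*. *Sympk* reads were thus higher in the knockout library of both stages, and with 1 pair of libraries each the difference could not be tested between genotypes.

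Along the gene the *Sympk* ratio was even at P1 and uneven at E18. At P1 it lay between 1.40 and 1.74 over 23 junctions. At E18 the first and second junctions were at 1.04 and 0.914 and the third at 1.34, and from the fourth on the ratio was between 1.44 and 2.36. Over the 12 junctions of the 5′ part it was 1.50 and over the 11 of the 3′ part 2.06, a quotient of 1.38, compared with 1.60, 1.65 and 1.03 at P1. For all genes with at least 10 such junctions the median of this quotient was 1.08 at E18 (5th to 95th percentile, 0.837 to 1.41) and 1.01 at P1 (0.870 to 1.18), so that the 2 E18 libraries differed somewhat along transcripts in general. In either part of the gene, at most 2.18% of these genes had a higher ratio than *Sympk* at either stage.

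**Figure D5:**
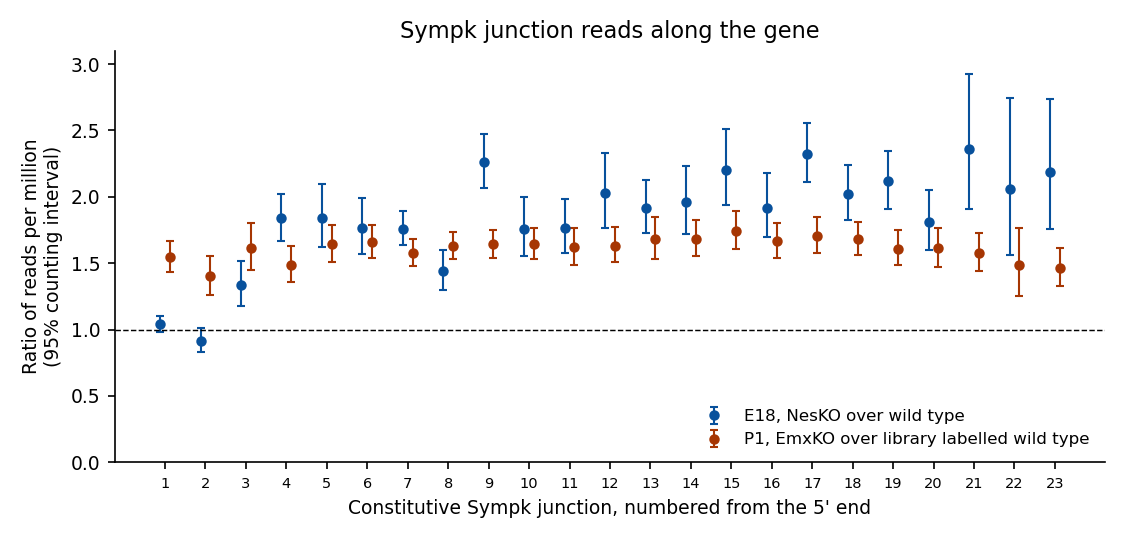
Ratio of RPM, knockout over comparison library, at each of 23 constitutive *Sympk* junctions numbered from the 5′ end, with 95% counting intervals, at E18 (blue) and P1 (red). The P1 ratios lie between 1.40 and 1.74, and the E18 ratios start at 1.04 and 0.914 and reach 2.36.

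The other 3 genes stayed nearer to 1. *Ikzf4* had 13.9 RPM in the NesKO and 14.3 in the E18 wild type (ratio 0.971, 0.873 to 1.08), and 10.9 and 10.3 at P1 (1.05, 0.955 to 1.15). The intervals include 1 at both stages. The exon with the stop codon was mostly included in the knockouts, but the direct join of the 273 nt to the 105 nt exon also closed the frame early. That join took 17.0% of the reads that left the 273 nt exon in the NesKO and 44.2% in the E18 wild type. At P1 it took 17.6% in the EmxKO and 45.3% in the library labelled wild type. The RPM values do not separate these paths, so decay of transcripts with an early stop codon was not tested. *Ccdc91* had 56.5 and 53.3 RPM at E18 (1.06, 1.00 to 1.12) and 29.2 and 32.8 at P1 (0.890, 0.842 to 0.940), in opposite directions for the sum. Single junctions did not all follow the sum. The join of its 79 nt to its 161 nt exon was lower at both stages (0.692, 0.589 to 0.811, and 0.652, 0.518 to 0.819). The join of its 88 nt exon to the same 161 nt exon was higher at both (2.42, 1.48 to 4.08, and 2.01, 1.11 to 3.75), on few reads. *Gpr85* has 1 constitutive junction, between its first exons, with 5.15 and 5.64 RPM at E18 (0.913, 0.767 to 1.09) and 6.26 and 7.73 at P1 (0.809, 0.719 to 0.909). Counting all junctions of *Gpr85* turned its ratio to 1.47 and 1.06. An included exon gives reads on 2 junctions and a skipped exon on 1, so this count also rises with inclusion. How much of the turn comes from this was not tested. The summed ratios on constitutive junctions of these 3 genes lie within the 5th to 95th percentile of all genes. The units are reads per library and not per length, so the RPM values do not rank the genes by level.

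Genes that act with the 4 members were looked up for cassette exons of their own. Of 20 partners of symplekin in 3′ end processing, 9 had cassette exons, 14 in all with enough reads. None passed 10 points at E18 and 1 was higher at P1, the 102 nt exon of *Rbbp6*, a ubiquitin ligase of the cleavage complex, with 62.5 and 55.7% at E18 and 66.1 and 52.6% at P1. Its intervals from junction reads at P1 overlap (62.9 to 77.0% and 52.7 to 64.8%). The relatives of *Gpr85*, *Gpr27* and *Gpr173*, had no cassette exon. Among the other Ikaros family genes, only *Ikzf1* had one with enough reads, and 1 of its exons, of 123 nt, had 96.0% in the NesKO against 85.9% in the E18 wild type, on 20 and 30 reads with 1 and 2 skipping reads, and 98.2 against 97.1% at P1. From its junction reads alone the E18 values were 90.5% (62.3 to 98.4%) and 87.5% (64.0 to 96.5%), whose intervals overlap. Of 10 genes of trans-Golgi sorting, 6 had cassette exons, 14 in all. An 81 nt exon of *Aftph*, which encodes aftiphilin, was higher at E18 (89.0 against 78.6%), with 88.6 against 82.7% at P1, and a 21 nt exon of *Ap1b1*, which encodes an AP-1 adaptor subunit, was higher at P1 (93.1 against 81.6%), with 87.4 against 83.4% at E18. By junction reads the intervals overlap for *Aftph* at E18 (83.2 to 94.1% and 72.2 to 88.4%) but not for *Ap1b1* at P1 (87.3 to 92.2% and 68.0 to 76.0%). Over all cassette exons, 6.98% gained at least 10 points at E18 and 6.83% at P1, so these counts are near the share of all exons. None of the exons of these lists was lower by 10 points at either stage, and the median differences were between −0.2 and 0.4 points for the symplekin and trans-Golgi lists, close to those of all cassette exons.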

How the data were processed

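The 4 libraries, 1 for each group, hold paired-end reads of 100 bp from E18 whole brain or P1 cortex. The authors ran SpliceTrap, which maps reads to exon trios held in a database, and deposited 1 table for each library, in mm9 coordinates. The inclusion ratio, deposited as a fraction from 0 to 1, is given before and after the correction of SpliceTrap, and the latter in percent was used as PSI. The deposited junction reads are counts on the 3 junctions of a trio, without normalization. The deposited read coverage of each exon is a signal whose scaling is not given in the sources used here. The processing notes of the submitters also name CASAVA, TopHat and Cufflinks, but no output of these was used here.

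Exon positions were recovered from the start and the length, and exons on the minus strand were turned to transcript order. Trios were named from GENCODE M21 (GRCm38): 209930 of 228333 by the exon and both introns, 2553 by a middle exon and 11624 by a flanking exon shared with a named trio. No coordinates were converted between builds, and GRCm38 positions come from the matched transcripts. Where a cassette exon had several trios, that with most reads was used, with a minimum of 20 junction reads, and a change was 10 points. The member genes, the lists of related genes and the tests were chosen with earlier results of these data known. Every exon of the 4 genes that changed by 10 points at either stage is named, and the member exon of a gene is the cassette exon with the largest smaller gain.

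A junction is listed in several trios with different counts, and gene levels take its highest count. PSI from junction reads has a 95% Wilson interval, and ratios of reads have an exact Clopper-Pearson interval. These cover counting error only, and PCR duplicates are not marked. The balance of junctions was tested by a two-sided exact binomial test within a library, adjusted over all cassette exons with 20 junction reads in each library, so its p-values concern that library alone. Reading frames were traced in M21 transcripts with exons inserted or removed. The planned count of pyrimidine motifs in the 100 bases of intron on each side was not run, since intron sequence was not used here. The calculations were tested on simulated data and used Python 3.11.15, numpy 2.4.6, pandas 2.3.3, scipy 1.17.1 and matplotlib 3.10.9.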

Additional observations from a re-analysis of the deposited data

How the results depend on the processing

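The gains of the 4 exons kept their direction under each way of computing PSI that was run, except that *Ccdc91* fell to 0.0 points at both stages with the 3′ junction alone, which has no reads in any library. In points, with the 5′ junction alone the gain was 59.2 (E18) and 65.5 (P1) for *Sympk*, 73.8 and 65.9 for *Gpr85*, and 81.4 at E18 for *Ccdc91*. With the 3′ junction alone it was 77.0 and 79.1 for *Sympk* and 51.5 at E18 for *Gpr85*, and with both junctions it was 74.0 at P1 for *Sympk*. With each junction at its highest count over trios, an alternative added after seeing the data, it was 42.6 at P1 for *Ikzf4*, and 32.7 and 26.9 for *Ccdc91*. The other 28 values moved by less than their counting interval. Summing all junctions of the exon turned the balance in *Ikzf4* to 60.8 and 52.2% on the 5′ side in the NesKO and the EmxKO. With all junctions of the gene the *Sympk* ratio was 1.71 and 1.67, without scaling to the library it was 1.62 at E18, and for *Gpr85* all junctions turned it to 1.47 and 1.06.

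The number of cassette exons changed, 737 at E18 and 654 at P1, was 1358 and 1201 with no minimum on reads, 192 and 136 at 20 points, 187 and 250 when Fisher's exact test on the reads of both libraries was also required, and 2282 and 1470 with constitutive exons included. The other 8 counts were within 1.5 times the main ones. The trio of the *Sympk*, *Ikzf4* and *Ccdc91* exons is the only one that has them in the middle, so the alternative of other trios had a value for *Gpr85* alone. Motif counts in the introns were not run. No paired analysis was possible because each group has 1 library. For *Ikzf4* and *Ccdc91*, 69 to 167 junction reads per library set the width of the intervals.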
